A study of Mus musculus with 5 samples.

Results

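The respiratory chain genes of mouse skin were taken as the genes whose symbols begin with mt-Nd, mt-Co, mt-Atp or mt-Cytb, with Nduf, with Cox4 to Cox8, with Uqcr or with Atp5, together with Sdha, Sdhb, Sdhc and Sdhd. Of 31053 genes in the count matrices, 106 met this rule. The mitochondrial genome encodes 13 of them and the nucleus 93. The 93 nuclear lines carry 92 symbols, since Atp5o stands on 2 lines. By complex, the mitochondrial genome gave 7 genes of complex I, 1 of complex III, 3 of complex IV and 2 of complex V. The nucleus gave 36 genes of complex I, 4 of complex II, 8 of complex III, 19 of complex IV and 16 lines of complex V. A further 8 were assembly factors of complex I, and Cox7a2l (supercomplex assembly) and Atp5s (a coupling factor) made up the rest.

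Complexes I to IV of the inner mitochondrial membrane pass electrons from NADH and succinate to oxygen and, apart from complex II, pump protons. Complex V, the ATP synthase, lets the protons back and makes ATP. Complex II is encoded wholly in the nucleus, whereas the other complexes mix subunits translated inside the mitochondrion with subunits made in the cytosol and imported. The mitochondrial genes are transcribed as long precursors from both strands and then cut into messengers. Each nuclear gene has its own promoter. In skin the fibroblasts, immune cells, keratinocytes, vessel cells and muscle fibres differ in how much of this machinery they express and in which isoforms of complex IV they use.

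Cells came from ventral skin taken from C57BL/6J mice on postnatal day 28. The skin was digested, and the cells were sorted against debris, aggregates and DAPI-positive dead cells and captured with 10x 3′ v2 chemistry. There were 3 libraries from Prx1Cre+Ikkbf/f mice (Ikkb_cKO) and 2 from wild-type mice (WT), each made from a pool of 2 mice. The Cre transgene is expressed from a Prrx1 enhancer, known for its activity in mesenchyme of the limbs and trunk, and the floxed gene encodes the kinase IKKβ of the NF-kB pathway. The study's title places its question in Prx1+ fibroblasts and atopic dermatitis. The 3′ counts of Ikbkb give no check of the deletion, because UMIs (unique molecular identifiers, each standing for 1 captured messenger) are read near the 3′ end and the deleted part is not given by the labels. In fibroblast-like cells Ikbkb had 16, 20.5 and 15.5 counts per 1000000 UMIs (CPM) in Ikkb_cKO libraries 1 to 3, against 14.1 and 18.3 in WT libraries 1 and 2.

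The libraries differed in depth. Total UMIs ran from 2163166 to 9738296 in Ikkb_cKO and were 14659158 and 16773096 in WT. After filtering, 10399 of 11084 barcodes were kept, with medians of 1606.5 to 2798.5 UMIs per cell in Ikkb_cKO and of 3584 and 4023.5 in WT. Any pair of libraries shared at most 17 barcodes. Cells were clustered without the respiratory chain and other mitochondrially encoded genes, and clusters were called fibroblast-like and so on from marker lists. Fibroblast-like (5567 cells), myeloid-like (2507) and lymphocyte-like (1005) cells reached 20 cells in every library and were tested. Ikkb_cKO library 3 stood apart. Its summed fibroblast-like counts differed from those of libraries 1 and 2 by a chi-square of 12.6 and 13.3 per degree of freedom. Libraries 1 and 2 differed by 1.45 and the WT pair by 4.60. Such a value can grow with depth, so pairs of unlike depth are not directly comparable. The sums held 1000640, 1123038 and 2586100 UMIs in Ikkb_cKO libraries 1 to 3 and 10334792 and 11806552 in WT libraries 1 and 2. The labels name no unit of replication beyond the pools of 2 mice. The p-values therefore cover only variation among these 5 libraries, and part of that may be technical. Fits without Ikkb_cKO library 3 take their spread within Ikkb_cKO from libraries 1 and 2 alone. Calls gained in such fits rest on the small difference of that pair.

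Several of the genes discussed here carry sequence that bears on how their UMIs are counted or on how their transcription is usually described. On the mitochondrial genome, 2 pairs of reading frames overlap on the plus strand, and capitals mark the bases that belong to both genes of a pair, with flanks in lower case (GENCODE annotation, GRCm38). The mt-Atp8 frame (chrM:7766-7969) and the mt-Atp6 frame (chrM:7927-8607) share 43 bases, and the window shown is chrM:7897-7999. The mt-Nd4l frame (chrM:9877-10173) and the mt-Nd4 frame (chrM:10167-11544) share 7 bases, and the window is chrM:10137-10203.
mt-Atp8 and mt-Atp6: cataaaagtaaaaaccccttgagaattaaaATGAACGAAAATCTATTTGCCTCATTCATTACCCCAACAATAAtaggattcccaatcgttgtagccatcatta
mt-Nd4l and mt-Nd4: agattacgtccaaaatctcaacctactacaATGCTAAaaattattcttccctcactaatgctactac

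Each overlapping pair is known to sit on a shared messenger. How the counting assigned reads in such overlaps is not given in the sources used here. Levels of both genes of each pair, mt-Atp8 and mt-Atp6, mt-Nd4l and mt-Nd4, are therefore less certain than those of the other mitochondrial genes.

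For the nuclear genes, windows of 250 bases before to 50 bases after the start of transcription were taken from RefSeq (GRCm38.p6), which matched 76 of the 92 symbols. Motifs known from promoters of respiratory genes were searched on both strands: a form of the NRF1 motif, AT with GCGC on each side, which reads the same on either strand, and CCGGAAG, an ETS core (CTTCCGG on the other strand). Neither motif holds the letters of the other. The NRF1 letters stood in 7 of 76 windows (9.21%), against 290 of all 27025 genes (1.07%), and the ETS letters in 18 of 76 (23.7%), against 2683 of all genes (9.93%). Promoters of 4 genes whose levels are described further on are shown, read 5′ to 3′ along each gene's strand with the motif in capitals. They are Sdhb at chr4:140961021-140961320 (plus strand), Ndufs8 at chr19:3912725-3913024 (minus), Uqcrc1 at chr9:108936398-108936697 (plus) and Atp5g2 at chr15:102670998-102671297 (minus).
Sdhb: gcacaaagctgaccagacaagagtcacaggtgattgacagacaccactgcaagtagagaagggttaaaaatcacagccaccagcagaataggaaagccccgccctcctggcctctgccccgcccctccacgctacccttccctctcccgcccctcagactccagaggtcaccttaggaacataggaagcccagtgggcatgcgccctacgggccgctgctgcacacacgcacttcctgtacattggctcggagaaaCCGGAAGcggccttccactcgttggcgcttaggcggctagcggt
Ndufs8: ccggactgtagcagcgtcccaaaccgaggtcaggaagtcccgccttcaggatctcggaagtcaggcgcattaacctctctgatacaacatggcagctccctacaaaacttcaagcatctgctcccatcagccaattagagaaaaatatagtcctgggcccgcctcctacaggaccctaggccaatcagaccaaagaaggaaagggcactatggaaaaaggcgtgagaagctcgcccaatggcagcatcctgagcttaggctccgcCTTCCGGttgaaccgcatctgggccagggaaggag
Uqcrc1: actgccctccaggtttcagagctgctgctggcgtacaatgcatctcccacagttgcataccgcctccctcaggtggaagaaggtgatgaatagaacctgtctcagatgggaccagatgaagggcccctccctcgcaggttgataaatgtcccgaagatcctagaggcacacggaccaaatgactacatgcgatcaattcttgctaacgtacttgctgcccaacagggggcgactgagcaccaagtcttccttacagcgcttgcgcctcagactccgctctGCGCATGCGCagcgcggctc
Atp5g2: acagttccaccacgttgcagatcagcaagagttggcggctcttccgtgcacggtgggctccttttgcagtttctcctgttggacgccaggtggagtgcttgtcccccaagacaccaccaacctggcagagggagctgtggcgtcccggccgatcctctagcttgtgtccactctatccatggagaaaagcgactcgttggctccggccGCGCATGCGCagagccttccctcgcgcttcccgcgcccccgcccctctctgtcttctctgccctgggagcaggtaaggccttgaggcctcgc

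In fibroblast-like cells the 2 genomes moved apart between genotypes. Of the 13 mitochondrially encoded genes, 8 were higher and 1 was lower in Ikkb_cKO, with a median log2 fold change of 0.84, while of 88 nuclear-encoded genes tested 45 were lower and 2 were higher, with a median of -0.51 (edgeR's quasi-likelihood test, adjusted p under 0.05 over all genes of the class). Over all 10536 genes tested, 35.4% passed, 17.4% as higher and 18% as lower, and the median was 0.04. The other 5 nuclear lines (Cox6a2, Cox7b2, Cox8b, Cox8c and the second Atp5o line) had too few UMIs to be tested. The WT libraries decide many of these calls: without WT library 1 or 2, 10 or 12 nuclear genes were lower, and without WT library 1, 5 mitochondrial genes were higher.

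**Figure D1:**
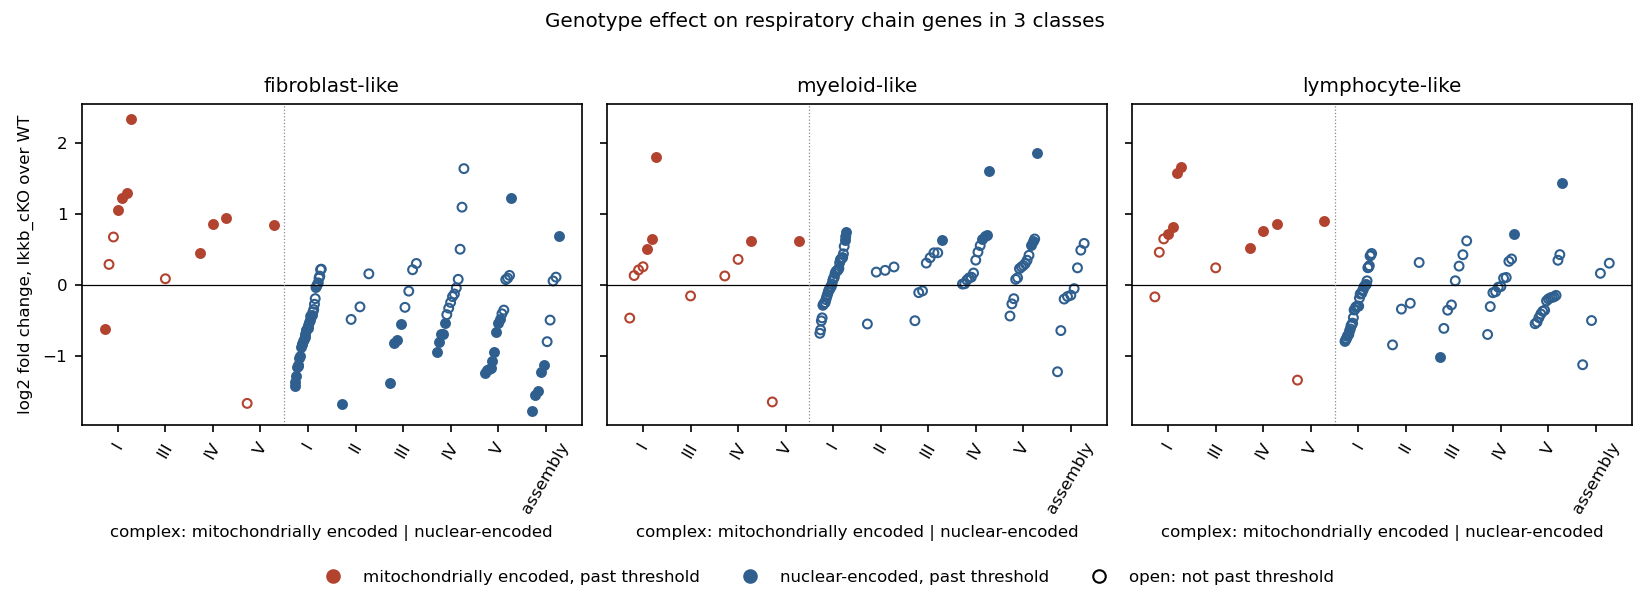
Log2 fold change of Ikkb_cKO over WT (y axis) of each tested respiratory chain gene in the 3 tested classes, by complex and genome (x axis; "assembly" holds the assembly and coupling factors). Filled points passed the adjusted threshold of 0.05 in edgeR's quasi-likelihood test and open points did not; in fibroblast-like cells the mitochondrial genes lie mostly above 0 (8 of 13 higher) and the nuclear genes mostly below it (45 of 88 lower).

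Among the mitochondrial genes of complex I, which build its proton-pumping membrane arm, mt-Nd3 (chrM:9459-9806) changed most. It had 540, 490 and 830 CPM on the TMM-normalised scale (used for all levels of these 3 classes unless plain CPM is named) in the fibroblast-like cells of Ikkb_cKO libraries 1 to 3, against 119 and 126 CPM in WT libraries 1 and 2. The genotypes did not overlap, and library 3 was the highest. The log2 fold change was 2.35 (SE 0.26, adjusted p = 0.00221, edgeR). mt-Nd4 had 2384, 2134 and 2056 CPM in Ikkb_cKO and 880 and 908 CPM in WT (log2 1.29, SE 0.12, adjusted p = 0.00156, edgeR). mt-Nd2 had 1914, 1699 and 1426 CPM in Ikkb_cKO and 696 and 736 CPM in WT (log2 1.23, SE 0.15), and mt-Nd1 had 2277, 2104 and 2072 CPM against 974 and 1090 CPM (log2 1.06, SE 0.12). For these 3 genes every Ikkb_cKO library lay above both WT libraries, and all passed the threshold.

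The remaining complex I genes of the mitochondrion did not pass as higher with all 5 libraries. mt-Nd5 had 468, 385 and 320 CPM in Ikkb_cKO and 326 and 314 CPM in WT, so that the genotypes overlapped and the gene did not pass (adjusted p = 0.241, edgeR). mt-Nd6, the only protein gene on the other strand of the genome, had 80.1, 67.7 and 46.2 CPM in Ikkb_cKO and 38.9 and 40.5 CPM in WT, higher in all 3 libraries but short of the threshold (log2 0.68, SE 0.24, adjusted p = 0.0639, edgeR). mt-Nd4l fell, with 1010, 1068 and 1258 CPM in Ikkb_cKO against 1843 and 1582 CPM in WT (log2 -0.62, SE 0.14, adjusted p = 0.0153, edgeR). Its partner frame mt-Nd4 moved the opposite way. Without Ikkb_cKO library 3, mt-Nd5 (log2 0.40) and mt-Nd6 (log2 0.87) passed as higher. The call on mt-Nd4l was lost without Ikkb_cKO library 1 or 2 or either WT library, with values from -0.75 to -0.53 on the log2 scale.

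The mitochondrial subunits of complex IV, which form its catalytic core, were all higher. mt-Co1 had 8154, 7276 and 8200 CPM in Ikkb_cKO and 4359 and 4364 CPM in WT (log2 0.85, SE 0.11). mt-Co3 had 4663, 4113 and 5266 CPM in Ikkb_cKO and 2350 and 2505 CPM in WT (log2 0.95, SE 0.13). mt-Co2 changed least, with 4107, 3812 and 4913 CPM in Ikkb_cKO and 3080 and 3179 CPM in WT (log2 0.45, SE 0.13, adjusted p = 0.0393, edgeR). The genotypes did not overlap for any of them, though mt-Co2 no longer passed without Ikkb_cKO library 1 or either WT library, nor mt-Co3 without WT library 1. mt-Cytb, the mitochondrial subunit of complex III, was level, with 3640, 3468 and 3484 CPM in Ikkb_cKO and 3510 and 3142 CPM in WT (log2 0.09, SE 0.11, adjusted p = 0.549, edgeR).

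The pair of complex V moved in opposite directions. mt-Atp6 had 4524, 4389 and 6291 CPM in Ikkb_cKO and 2806 and 2853 CPM in WT (log2 0.84, SE 0.18, adjusted p = 0.0122, edgeR), and this call was lost without either WT library. mt-Atp8, whose frame overlaps the start of mt-Atp6, had 75.2, 82.4 and 423 CPM in Ikkb_cKO and 572 and 688 CPM in WT. All Ikkb_cKO libraries lay below WT, but library 3 stood far above libraries 1 and 2, and the gene did not pass (log2 -1.67, SE 0.77, adjusted p = 0.148, edgeR). Without library 3 it passed (log2 -3.01, adjusted p = 3.79e-14, edgeR). That p-value reflects how closely libraries 1 and 2 resembled each other and leaves out the spread that library 3 brings. The same split of the libraries ran through every tested class: mt-Atp8 made up 0.278%, 0.189% and 1.08% of the UMIs of mitochondrially encoded respiratory chain genes in myeloid-like cells of Ikkb_cKO libraries 1 to 3, against 2.25% and 2.59% in WT. In lymphocyte-like cells it made up 0.303%, 0.262% and 1.77% in Ikkb_cKO and 3.32% and 3.72% in WT.

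**Figure D2:**
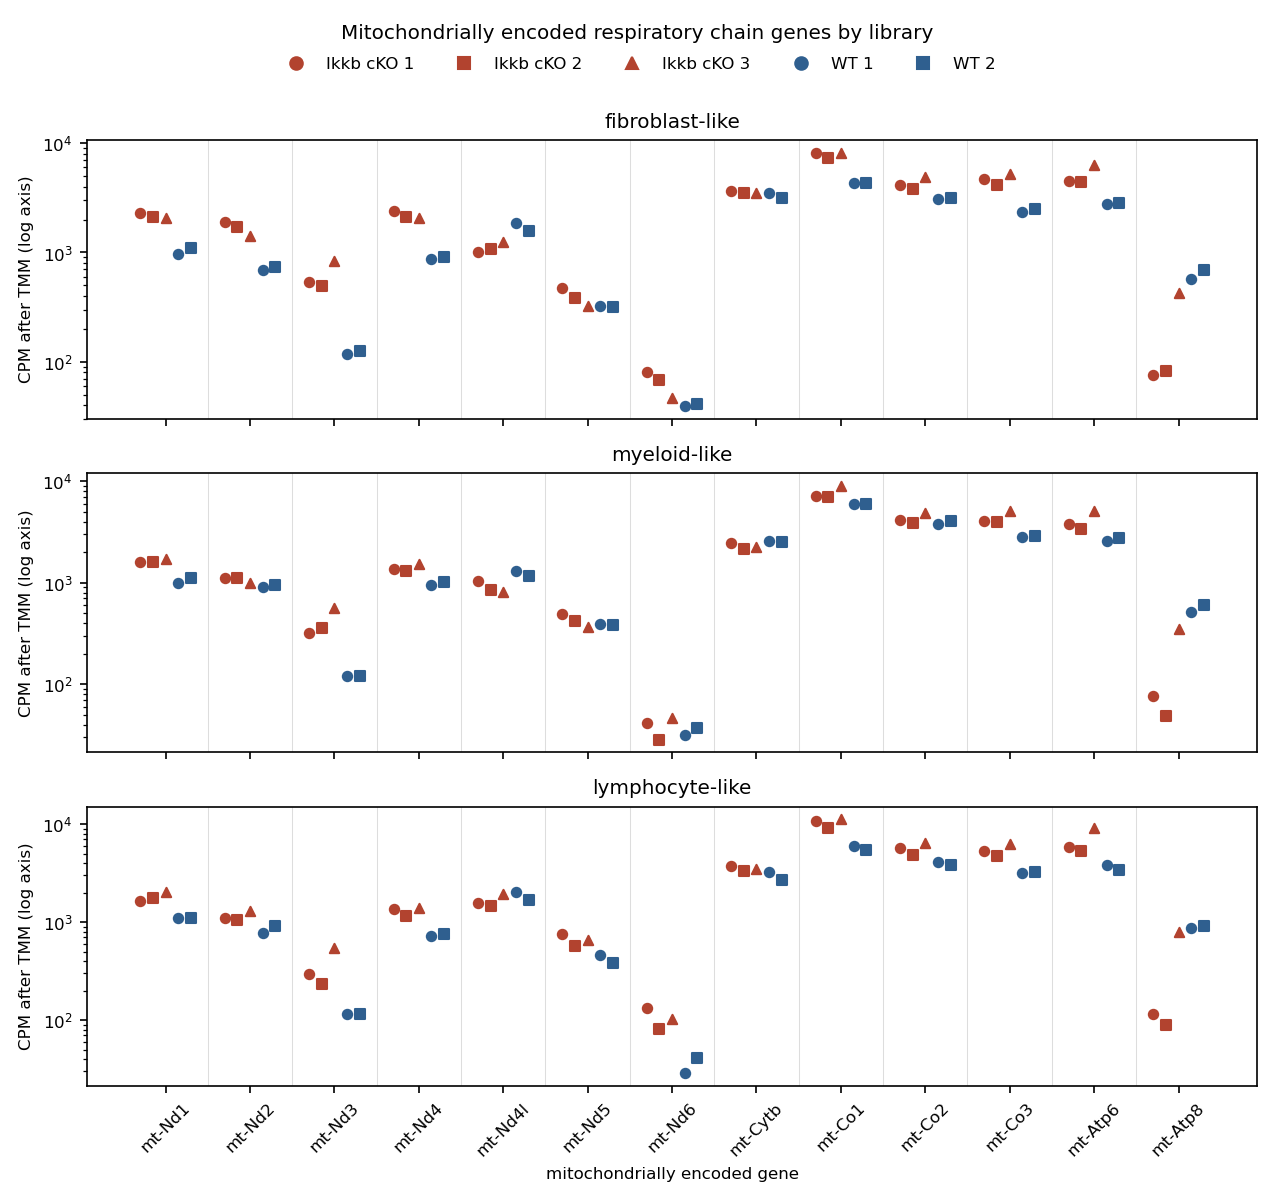
TMM-normalised CPM (log y axis) of the 13 mitochondrially encoded respiratory chain genes (x axis) in each library, red for Ikkb_cKO and blue for WT, in the 3 tested classes. In each class mt-Nd1, mt-Nd2, mt-Nd3, mt-Nd4, mt-Co1, mt-Co3 and mt-Atp6 lie higher in every Ikkb_cKO library than in both WT libraries, and mt-Atp8 lies lower, with Ikkb_cKO library 3 nearest to WT.

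The nuclear-encoded genes of complex I were lower in 21 of 36 cases in fibroblast-like cells, with the other 15 short of the threshold and a median log2 fold change of -0.59. Ndufv2, an iron-sulphur subunit of the arm that takes electrons from NADH (chr17:66078638-66101559), had 58.4, 72.0 and 49.0 CPM in Ikkb_cKO and 161 and 157 CPM in WT (log2 -1.42, SE 0.18, adjusted p = 0.0028, edgeR). Ndufv1, which binds NADH, had 40.6, 37.3 and 24.1 CPM in Ikkb_cKO and 84.6 and 86.7 CPM in WT (log2 -1.38, SE 0.22). Ndufs8, an iron-sulphur subunit, had 18.8, 28.6 and 26.1 CPM in Ikkb_cKO and 61.5 and 59.6 CPM in WT (log2 -1.29, SE 0.19). In all 3 the Ikkb_cKO libraries lay below both WT libraries. Ndufs3 (log2 -1.15, SE 0.14), a core subunit, and the accessory subunit Ndufa12 (log2 -1.16, SE 0.13) also fell. The calls on Ndufv1 and Ndufs8 were lost without either WT library.

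Of the 8 assembly factors of complex I, 5 were lower and 1 was higher. Ndufaf2 had 18.8, 24.3 and 27.6 CPM in Ikkb_cKO and 57.9 and 55.7 CPM in WT (log2 -1.23, SE 0.19, adjusted p = 0.00443, edgeR), a call that was lost without either WT library. Ndufaf4, with 22.8, 29.5 and 26.5 CPM in Ikkb_cKO and 16.7 and 16 CPM in WT, was the factor that rose (log2 0.69, SE 0.19, adjusted p = 0.0297, edgeR). It no longer passed without Ikkb_cKO library 2 or either WT library.

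Complex II, which oxidises succinate and has no mitochondrially encoded subunit, was split. Its iron-sulphur subunit Sdhb (chr4:140961203-140979193) had 60.3, 47.7 and 52.9 CPM in Ikkb_cKO and 180 and 165 CPM in WT, with no overlap. At -1.69 on the log2 scale (SE 0.15, adjusted p = 0.00151, edgeR), its change was the lowest among nuclear-encoded genes whose average level was 4 or more in log2 CPM. The flavoprotein Sdha, with 85.1, 95.4 and 72.3 CPM in Ikkb_cKO and 72.0 and 78.4 CPM in WT, did not pass (log2 0.16, SE 0.17, adjusted p = 0.489, edgeR). The membrane anchors Sdhc (log2 -0.31) and Sdhd (log2 -0.49, adjusted p = 0.112 in edgeR) did not pass either, except without Ikkb_cKO library 3, where both were lower.

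Complex III had 4 of 8 nuclear genes lower. Uqcrc1, a core protein, had 48.5, 58.1 and 40.3 CPM in Ikkb_cKO and 133 and 119 CPM in WT (log2 -1.38, SE 0.18, adjusted p = 0.00311, edgeR), with the genotypes apart. In complex IV 5 of 15 tested genes were lower, with a median log2 fold change of -0.25. Ndufa4, which is now counted with complex IV, had 304, 343 and 298 CPM in Ikkb_cKO and 613 and 606 CPM in WT (log2 -0.95, SE 0.12, adjusted p = 0.00297, edgeR). Cox6b1 (log2 -0.69) and Cox8a (log2 -0.54) also fell, whereas Cox4i1 (log2 -0.25, adjusted p = 0.113 in edgeR), Cox6a1 (log2 -0.13), Cox7a2 (log2 -0.42) and Cox7b (log2 -0.33) did not pass. Cox4i1 had 821, 821 and 827 CPM in Ikkb_cKO and 948 and 1006 CPM in WT, below WT in all 3 libraries by a small margin. Without Ikkb_cKO library 3, Cox4i1, Cox7a2 and Cox7b passed as lower, while Cox6b1 and Cox8a were lost without either WT library and Ndufa4 without WT library 1.

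Complex V had 9 of 15 tested nuclear genes lower and 1 higher. Atp5g1 and Atp5g2 encode the same c subunit of the rotating ring. Atp5g1 had 182, 222 and 187 CPM in Ikkb_cKO and 466 and 465 CPM in WT (log2 -1.24, SE 0.14), and Atp5g2 had 285, 330 and 295 CPM in Ikkb_cKO and 689 and 694 CPM in WT (log2 -1.19, SE 0.12). The central stalk subunits Atp5c1 (log2 -1.20, SE 0.13) and Atp5d (log2 -1.18, SE 0.12, adjusted p = 0.00172, edgeR) fell as well. Atp5d had 232, 222 and 226 CPM in Ikkb_cKO and 512 and 515 CPM in WT, values with little spread on either side. Atp5k (chr5:108433244-108434448), the small subunit e that helps the synthase to dimerise, went the other way. It had 345, 272 and 294 CPM in Ikkb_cKO and 151 and 108 CPM in WT (log2 1.23, SE 0.19, adjusted p = 0.00504, edgeR), and the call was lost without WT library 2 (log2 0.99).

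Counted without the test, 62 nuclear genes had all Ikkb_cKO libraries below both WT libraries and 6 had them above. Over all genes tested these shares were 31.0% below and 29.7% above, so non-overlap alone was frequent in these libraries. Taken as shares of all UMIs of fibroblast-like cells, the mitochondrial genes made up 3.40% ± 0.20 (SD, n = 3) in Ikkb_cKO and 2.11% ± 0.01 (SD, n = 2) in WT. The nuclear genes made up 1.88% ± 0.10 (SD, n = 3) in Ikkb_cKO and 2.42% ± 0.03 (SD, n = 2) in WT. The ratio of mitochondrial to nuclear UMIs was 1.81, 1.61 and 2.01 in Ikkb_cKO and 0.859 and 0.882 in WT, a difference of 1.05 on the log2 scale. No library of one genotype reached the range of the other. Sums over the genes were given no test.

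Cell depth moved with this ratio, so it was also taken within bands of UMIs per cell. Among fibroblast-like cells of up to 1000 UMIs the ratio ran from 2.05 to 2.65 in Ikkb_cKO and from 1.69 to 1.77 in WT. In cells of 1000 to 2000 UMIs it ran from 2.14 to 2.53 in Ikkb_cKO and from 1.58 to 1.65 in WT, and in cells of 2000 to 4000 UMIs from 1.67 to 2.14 and from 1.23 to 1.28. Above 4000 UMIs it ran from 1.19 to 1.82 in Ikkb_cKO and from 0.781 to 0.815 in WT. The ratio was lower in each deeper band in every library except Ikkb_cKO library 3, where it was 2.05 in the shallowest band and 2.53 in the next. The genotypes stayed apart in every band. The nuclear share was also lower in Ikkb_cKO in every band, for instance 1.90% to 2.40% in Ikkb_cKO and 2.44% to 2.50% in WT above 4000 UMIs.

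**Figure D3:**
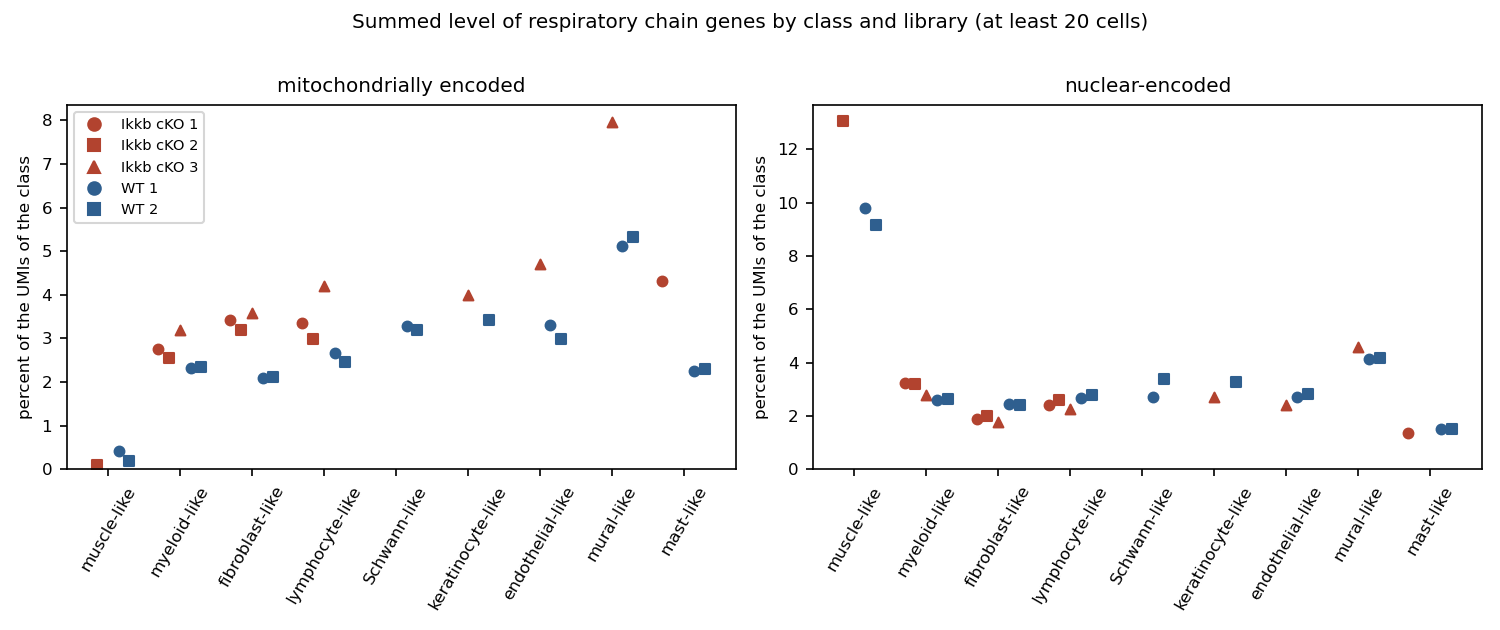
Summed UMIs of the mitochondrially encoded (left) and nuclear-encoded (right) respiratory chain genes as percent of all UMIs of a class (y axis) in each library with at least 20 cells of the class (x axis), red for Ikkb_cKO and blue for WT. In fibroblast-like cells the Ikkb_cKO libraries lie above WT on the left (3.40% and 2.11% on average) and below WT on the right (1.88% and 2.42%), and lymphocyte-like, mast-like, endothelial-like and keratinocyte-like cells lie the same way; muscle-like cells have the highest nuclear and the lowest mitochondrial shares.

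The genotypes occupied different fibroblast-like clusters. Clusters 0 and 3 held 943 of 1887 Ikkb_cKO fibroblast-like cells and 2 of 3680 in WT (0.0543%), while clusters 13, 15 and 26 held 3.92% of the Ikkb_cKO and 47.5% of the WT cells. The comparison was therefore repeated inside clusters 10, 17 and 4, which had at least 20 cells in each library. Nuclear genes were lower in 19 of 81, 16 of 62 and 16 of 72 tested, against 11.4%, 18.9% and 14.7% of all genes, and higher genes made up 9.16%, 20.6% and 13.8% of all genes. Median log2 fold changes of nuclear genes were -0.32, -0.27 and -0.34, smaller in size than the -0.51 of the whole class. For mitochondrial genes the medians were 0.18, 0.66 and 0.66, against 0.84 in the whole class, and for all genes -0.03, 0.02 and 0.01. Sdhb, Ndufv2, Atp5c1, Atp5d, Ndufa13 and Ndufb11 were lower in all 3 clusters, and mt-Nd3 and Atp5k were higher in all 3; Ndufa13 and Ndufb11 were picked out after their values were seen. In cluster 10 mt-Nd3 was the single mitochondrial gene that rose, whereas 7 mitochondrial genes rose in cluster 17 and 7 in cluster 4. mt-Atp8 and mt-Nd4l were lower in clusters 10 and 17 and did not pass in cluster 4.

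Markers of other cell types also differed between the fibroblast-like sums. The 14 endothelial markers summed to 462 to 712 plain CPM in Ikkb_cKO and to 1056 and 1017 in WT, and the 12 mural markers to 146 to 278 in Ikkb_cKO and 469 and 493 in WT, with no marker of either list at 0. The 9 B-lineage markers, 2 of them at 0, summed to 47.2 to 87.9 plain CPM in Ikkb_cKO and to 19.3 and 21.6 in WT. The 20 lymphocyte markers, 1 at 0, summed to 14.7 to 26.7 in Ikkb_cKO and to 9.58 and 7.03 in WT. Myeloid-like sums differed too. There the 16 fibroblast markers summed to 147 to 271 plain CPM in Ikkb_cKO and to 650 and 632 in WT, and the 8 mast markers to 73.0 to 112 and to 8.07 and 15.2. In lymphocyte-like sums the 20 myeloid markers, 1 at 0, came to 571 to 1323 plain CPM in Ikkb_cKO and 1058 and 1973 in WT. The 16 fibroblast markers came to 191 to 664 there in Ikkb_cKO and to 259 and 356 in WT. Both of these sums overlapped between genotypes. The 8 mast markers, 2 at 0, came to 107 to 142 in Ikkb_cKO and to 57.6 and 41.7 in WT. The part of such other cells in the respiratory chain results was not tested.

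The other classes showed which of these changes were shared. In myeloid-like cells 5 of 13 mitochondrial genes rose and 8 did not pass, with a median log2 fold change of 0.26, and 10 of 85 nuclear genes rose and 75 did not pass, with a median of 0.18. Of all 8924 genes tested there, 18.1% passed, 8.71% as higher and 9.39% as lower. The genotypes filled different clusters of this class too: cluster 25, led by Pf4 and C1qb, held 4 of 133, 18 of 160 and 98 of 547 cells in Ikkb_cKO libraries 1 to 3, against 402 of 808 and 396 of 859 in WT, and its part in these changes was not tested. mt-Nd3 had 321, 361 and 564 CPM in Ikkb_cKO and 122 and 120 CPM in WT (log2 1.81, SE 0.25, adjusted p = 0.000982, edgeR). mt-Nd1 (log2 0.65), mt-Co3 (log2 0.62), mt-Atp6 (log2 0.62) and mt-Nd4 (log2 0.50) rose too. Without WT library 1 or 2 a single mitochondrial gene passed in each case, and 3 passed without Ikkb_cKO library 1.

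Among the nuclear genes of myeloid-like cells Atp5k again rose, to 522, 545 and 523 CPM in Ikkb_cKO against 159 and 131 CPM in WT (log2 1.87, SE 0.18, adjusted p = 0.000125, edgeR). Of 13 tested nuclear genes of complex IV 4 rose and 9 did not pass, and those that rose were Cox7c, Cox6c, Cox7b (log2 0.64) and Cox6b2. Cox7c had 1357, 1348 and 1117 CPM in Ikkb_cKO and 814 and 757 CPM in WT (log2 0.69, SE 0.16), and Cox6c had 1110, 1242 and 1041 CPM in Ikkb_cKO and 688 and 703 CPM in WT (log2 0.70, SE 0.16). Ndufc1, an accessory subunit of complex I, had a log2 fold change of 0.75 (SE 0.18). Cox6b2, known as a testis isoform, had 24.7, 10.3 and 44.0 CPM in Ikkb_cKO and 9.11 and 12.1 CPM in WT, and so overlapped between genotypes although it passed (log2 1.61, adjusted p = 0.0189, edgeR). The count of 10 was 1 without either WT library, 6 without Ikkb_cKO library 2 and 24 without library 3. Sdhb had 115, 114 and 89.5 CPM in Ikkb_cKO and 148 and 156 CPM in WT and did not pass in this class (log2 -0.55, adjusted p = 0.0826, edgeR).

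In lymphocyte-like cells 8 of 13 mitochondrial genes rose and 5 did not pass, with a median log2 fold change of 0.72. Of 78 nuclear genes 2 rose, 1 fell and 75 did not pass, with a median of -0.18. Over all 4468 genes tested, 10.1% passed, 6.33% as higher and 3.76% as lower. Here cluster 2, led by Il13 and Il5, held 140 of 191, 103 of 139 and 198 of 472 cells in Ikkb_cKO libraries 1 to 3, against 26 of 105 and 26 of 98 in WT. Cluster 14, led by Ccl5 and Gzmc, held 31, 14 and 166 cells in Ikkb_cKO, against 58 and 52 in WT. The part of these shifts in the changes was not tested. mt-Nd3 had 294, 236 and 551 CPM in Ikkb_cKO and 115 and 117 CPM in WT (log2 1.66, SE 0.38, adjusted p = 0.0293, edgeR). mt-Nd6 had 133, 81.8 and 103 CPM in Ikkb_cKO and 28.7 and 41.5 CPM in WT (log2 1.58, SE 0.37, adjusted p = 0.0191, edgeR). mt-Atp6, mt-Co1, mt-Nd4, mt-Co3, mt-Nd1 and mt-Co2 rose by log2 fold changes between 0.52 and 0.90. These calls rest on few libraries: they were lost without WT library 1 or 2, and without Ikkb_cKO library 1 the test called 2.

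The nuclear genes that changed in lymphocyte-like cells were Atp5k (418, 415 and 357 CPM in Ikkb_cKO, 168 and 124 CPM in WT, log2 1.44, SE 0.23), Cox7c (log2 0.72, SE 0.18) and Uqcrc1. Uqcrc1 had 83.1, 72.0 and 63.3 CPM in Ikkb_cKO and 123 and 166 CPM in WT (log2 -1.02, SE 0.28, adjusted p = 0.0381, edgeR). With plain library totals in place of TMM the median of all genes in this class moved by -0.15, and 1 nuclear gene was higher and 5 were lower. The nuclear count of 2 rises was 9 without Ikkb_cKO library 3, was 1 without library 1, without library 2 or without WT library 1, and was 0 without WT library 2.

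Across the 3 classes mt-Nd1, mt-Nd3, mt-Nd4, mt-Co3, mt-Atp6 and the nuclear Atp5k were higher in Ikkb_cKO in each. Of these, mt-Nd4 and mt-Atp6 overlap other frames, which makes their levels less certain. The classes come from the same 5 libraries, so their counts of genes are not independent. Summed mitochondrial shares were 2.83% ± 0.33 (SD, n = 3) in Ikkb_cKO and 2.34% ± 0.01 (SD, n = 2) in WT in myeloid-like cells, and 3.52% ± 0.63 (SD, n = 3) and 2.56% ± 0.13 (SD, n = 2) in lymphocyte-like cells. Summed nuclear shares were 3.07% ± 0.23 (SD, n = 3) in Ikkb_cKO and 2.62% ± 0.02 (SD, n = 2) in WT in myeloid-like cells, and 2.42% ± 0.16 (SD, n = 3) and 2.74% ± 0.07 (SD, n = 2) in lymphocyte-like cells. The ratio of the 2 genomes was 0.801 to 1.14 in Ikkb_cKO and 0.893 in both WT libraries in myeloid-like cells, and 1.16 to 1.87 and 0.885 to 0.988 in lymphocyte-like cells. It thus overlapped between genotypes in myeloid-like cells, and did not overlap in lymphocyte-like cells. Counted gene by gene without the test, all Ikkb_cKO libraries lay above both WT libraries for 33 nuclear genes and below them for 13 in myeloid-like cells (20.8% and 24.3% of all genes), and above for 12 and below for 30 in lymphocyte-like cells (25.3% and 23.6% of all genes).

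Whether the genotype effect differed between classes was tested as a class by genotype term with library as a block. Against myeloid-like cells, the effect in fibroblast-like cells was lower for 36 of 89 nuclear genes and higher for 7 of 13 mitochondrial genes. Of all 11449 genes, 4.38% were lower and 7.56% higher in that test. The median difference was -0.56 for nuclear genes, 0.45 for mitochondrial genes and 0.14 for all genes. Atp5g1 differed most among the named nuclear genes (log2 -1.35, SE 0.19, adjusted p = 0.000114, edgeR), and Sdhb differed by -1.02 (SE 0.24, adjusted p = 0.00769, edgeR). mt-Nd2 differed most among the mitochondrial genes (log2 1.13, SE 0.17, adjusted p = 0.000174, edgeR); it had 1110, 1110 and 1000 CPM in Ikkb_cKO and 898 and 954 CPM in WT in myeloid-like cells. Without either WT library 2 nuclear genes differed, and the mitochondrial count was 2 without WT library 1 or Ikkb_cKO library 2 and 1 without WT library 2.

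Against lymphocyte-like cells the effect in fibroblast-like cells was lower for 6 of 85 nuclear genes, where 2.27% of all 9984 genes were lower and 0.551% higher. These were Atp5g2 (log2 -1.09, SE 0.20, adjusted p = 0.00186, edgeR), Atp5g1, Atp5d, Cox7c, Ndufa7 and Ndufa13, of which the last pair were named after their values were seen. Among mitochondrial genes mt-Nd2 came nearest to the threshold (log2 0.70, SE 0.20, adjusted p = 0.0652, edgeR). edgeR called 0 of the 13 mitochondrial genes in this comparison, with 5 at an unadjusted p under 0.05. Without Ikkb_cKO library 3 there were 15 nuclear and 4 mitochondrial genes, without Ikkb_cKO library 1 or 2 there were 4 nuclear genes, and without either WT library the calls were lost.

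The nuclear respiratory chain genes have short transcripts, with a median of 710.5 bases among the 88 tested in fibroblast-like cells and 82 of them at most 1500 bases. Changes of all genes varied with length in the same libraries. In fibroblast-like cells 35.9% of the 2662 genes of 700 to 1500 bases were lower, with a median log2 fold change of -0.45, whereas the median was 0.34 for genes over 2500 bases. In the same band 26 of 40 nuclear respiratory chain genes were lower (65.0%), with a median of -0.80. The band held a larger share of lower genes than the rest in the other classes too, 13.6% in myeloid-like and 6.77% in lymphocyte-like cells. With an offset for length in each library, an alternative added after the data were seen, 25 nuclear genes were lower and 4 higher in fibroblast-like cells, with a median of -0.25, and 12.3% of all genes were lower and 15.2% higher. In myeloid-like and lymphocyte-like cells the same offset gave 11% and 5.1% of all genes higher and 7.82% and 3.25% lower. Of the nuclear genes in myeloid-like cells, 11 were then higher and 0 lower, with a median of 0.30 against 0.18 without the offset. In lymphocyte-like cells 2 were higher and 2 lower, with a median of -0.18. The part of length in the result was not separated further.

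**Figure D4:**
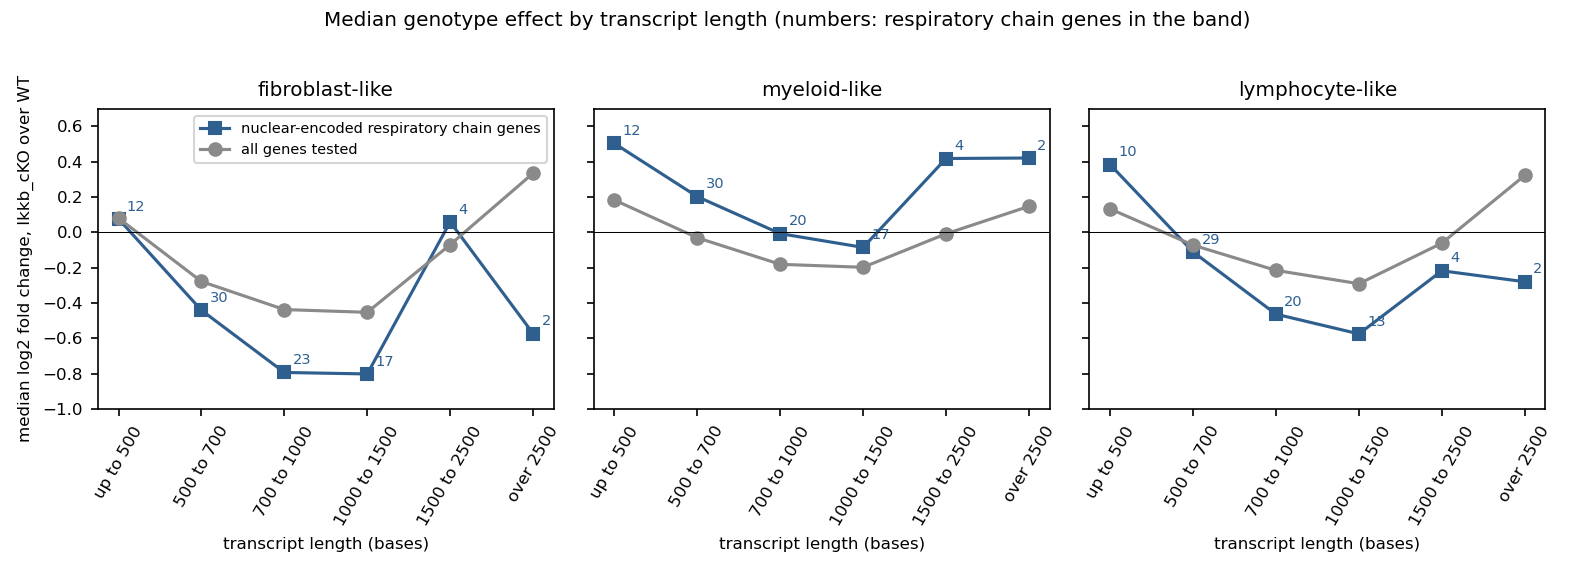
Median log2 fold change of Ikkb_cKO over WT (y axis) by transcript length in bases (x axis) for nuclear-encoded respiratory chain genes (blue squares, with their number) and for all genes tested (grey circles), in the 3 classes. In fibroblast-like cells the respiratory chain genes of 700 to 1500 bases have a median of -0.80 and all genes of that length -0.45.

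Other mitochondrial gene groups, from lists chosen with earlier results of these data known, gave the setting. In fibroblast-like cells 53 of 78 genes of the mitochondrial ribosome (67.9%) were lower, against 18% of all genes. Their median log2 fold change was -0.91. Mrpl17, a protein of its large subunit, had 74.2, 66.8 and 69.1 CPM in Ikkb_cKO and 186 and 177 CPM in WT (log2 -1.38, SE 0.13, adjusted p = 0.00163, edgeR), and Mrps16, of the small subunit, changed by -1.36 (SE 0.17). In myeloid-like cells 2 of 78 genes of this ribosome were lower and 2 higher, where 9.39% of all genes were lower and 8.71% higher. In lymphocyte-like cells 1 of 57 was lower and 1 higher, where 3.76% of all genes were lower and 6.33% higher.

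Among assembly factors outside the rule 12 of 32 were lower (37.5%) and 3 higher in fibroblast-like cells. Of all genes tested there, 18% were lower and 17.4% higher. Among all genes of 700 to 1500 bases 35.9% were lower, and the lengths of the listed genes were not taken into account. Coa3, which helps to translate mt-Co1 and to build complex IV, had 70.2, 60.7 and 65.2 CPM in Ikkb_cKO and 168 and 167 CPM in WT (log2 -1.36, SE 0.13), and Surf1, another complex IV assembly factor, changed by -1.06. Of 17 genes of the citric acid cycle and pyruvate dehydrogenase 6 were lower (35.3%) and 1 was higher. Idh2 had 56.4, 52.9 and 55.3 CPM in Ikkb_cKO and 146 and 145 CPM in WT (log2 -1.40, SE 0.13), Mdh2 changed by -1.27 and Fh1 by -1.70. Of 17 genes of coenzyme Q and electron carriers 4 were lower (23.5%, near the 18% of all genes) and 1 was higher, with Etfa, which feeds electrons from fatty acid oxidation, at -1.21 and the kinase-like Coq8b at 0.88. Carriers and channels of the mitochondrial membranes were lower in 3 of 8 cases, namely Vdac1, Vdac2 and Vdac3.

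Of 18 genes of mitochondrial RNA processing 4 were lower (22.2%), a share near the 18% of all genes. Hsd17b10, a subunit of the RNase that cuts the long precursors, had 38.6, 39.0 and 34.0 CPM in Ikkb_cKO and 139 and 142 CPM in WT (log2 -1.93, SE 0.14, adjusted p = 0.00134, edgeR). Of 14 regulators of mitochondrial biogenesis 1 was lower (7.14%) and 2 were higher, no more than the 18% and 17.4% of all genes. Ssbp1, which coats single-stranded mitochondrial DNA, was lower (log2 -0.83). Polg, the mitochondrial DNA polymerase (log2 0.83), and Pprc1 (log2 0.78) were higher. The cytosolic ribosome was mixed, with 33 of 97 genes lower (34%) and 20 higher. Its most changed genes by p were higher, such as Rps29. It had 6834, 6379 and 6849 CPM in Ikkb_cKO and 1967 and 1572 CPM in WT (log2 1.92, SE 0.14). Rps29 also rose in myeloid-like (log2 1.54, SE 0.16) and lymphocyte-like cells (log2 1.82, SE 0.16), as did Rpl37a, Rps27 and Rps28.

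The motif searches did not separate the nuclear genes that fell. The NRF1 letters stood in 3 of 41 matched promoters of genes lower in fibroblast-like cells (7.32%: Uqcrc1, Atp5g2 and Ndufa11, the last named after its values were seen) and in 4 of 35 of the others (11.4%). The ETS letters stood in 8 of 41 (19.5%), Sdhb and Ndufs8 among them, and in 10 of 35 of the others (28.6%). A match describes these letters in the window and shows no binding.

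Classes with fewer cells had at most 1 Ikkb_cKO library of at least 20 cells, so that their values have no replicate check and no test. The ratio of mitochondrial to nuclear UMIs was 3.21 in mast-like cells of Ikkb_cKO library 1, against 1.53 and 1.5 in the WT libraries. In Ikkb_cKO library 3 it was 1.94 in endothelial-like cells, against 1.06 to 1.22 in WT, and 1.74 in mural-like cells, against 1.24 to 1.28. In keratinocyte-like cells it was 1.48 in that library and 1.05 in the single WT library. In each of these 4 classes the Ikkb_cKO value was above every WT value. The mast-like cells of Ikkb_cKO library 1 were shallower, with a median of 1727.5 UMIs per cell against 3419 and 3070 in WT libraries 1 and 2. In the other classes given here the Ikkb_cKO median was the higher.

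The summed counts of muscle-like cells (185) differed from those of the other classes. Nuclear genes made up 13.1% of the UMIs in 25 cells of Ikkb_cKO library 2, and 9.78% and 9.16% in 78 and 63 cells of WT libraries 1 and 2. Mitochondrial genes made up 0.0876% in Ikkb_cKO library 2 (95% Clopper-Pearson interval 0.0712% to 0.107%), and 0.417% (0.392% to 0.444%) and 0.185% (0.169% to 0.202%) in WT libraries 1 and 2. Such intervals cover counting error only. Of the 185 cells 92 (49.7%) had no mitochondrial UMI at all, whereas the share was 0.126% of fibroblast-like and 1.94% of keratinocyte-like cells. The median mitochondrial share of a muscle-like cell was 0.0067% and the highest 7.70%, so the sums describe no typical cell. In these sums nuclear respiratory chain messengers were at their highest share where mitochondrial messengers were at their lowest. Whether these barcodes held whole cells was not tested.

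These cells also carried the muscle isoforms of complex IV. In plain CPM, Cox6a2 had 6018 (95% Poisson interval 5574 to 6488) in Ikkb_cKO library 2, and 5007 (4724 to 5302) and 4375 (4131 to 4629) in WT libraries 1 and 2. Its value was at most 8.95 plain CPM in any library of any other class shown. Cox8b had 4593 (4206 to 5006) plain CPM in Ikkb_cKO library 2, and 1971 (1795 to 2160) and 1412 (1275 to 1560) in WT, and Cox7a1 had 1354 in Ikkb_cKO library 2, and 739.7 and 556.9 in WT. The partner used in most tissues, Cox6a1, had 17.7 plain CPM in Ikkb_cKO library 2, and 21.4 and 25.5 in WT. In endothelial-like cells, by contrast, Cox6a1 had 504.1 in Ikkb_cKO library 3, and 570.0 and 576.6 in WT.

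Vessel cells held another pair. Cox4i2, an isoform of subunit 4 known from lung and from oxygen-sensing cells, had 128.1 plain CPM (95% Poisson interval 68.2 to 219.1) in 20 mural-like cells of Ikkb_cKO library 3, and 787.9 (631.9 to 970.7) and 839.0 (689.6 to 1011) in 51 and 52 cells of WT libraries 1 and 2. Ndufa4l2, a hypoxia-induced relative of Ndufa4, had 118.3 (61.1 to 206.6) in the same Ikkb_cKO library, and 1083 (899.0 to 1295) and 999.2 (835.4 to 1186) in WT. Both values were lower in the single Ikkb_cKO library than in either WT library; the intervals cover counting error only and not the spread between libraries, so this difference has no replicate check. Their partner Cox4i1 had 2316 in Ikkb_cKO library 3, and 1674 and 1609 in WT. In endothelial-like cells Ndufa4l2 had 28.4 in Ikkb_cKO library 3, and 116.6 and 190.7 in WT, and Cox4i2 had 106.5, and 103.6 and 195.2.

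In fibroblast-like cells Ndufa4l2 differed mainly between the Ikkb_cKO libraries. It had 26.7, 15.6 and 216 CPM in libraries 1 to 3, against 30.5 and 28.3 CPM in WT, and did not pass (log2 1.64, SE 1.06, adjusted p = 0.28, edgeR). Keratinocyte-like cells of Ikkb_cKO library 3 had 117.1 plain CPM of the gene, and those of WT library 2 had 378. The 14 keratinocyte markers summed to 31.0, 57.0 and 153.9 plain CPM in the fibroblast-like cells of Ikkb_cKO libraries 1 to 3, and to 69.0 and 72.4 in WT. Their part in the value of library 3 was not tested. Of the remaining isoforms, Cox7b2 had 0 UMIs and Cox8c 1 UMI over all cells.

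**Figure D5:**
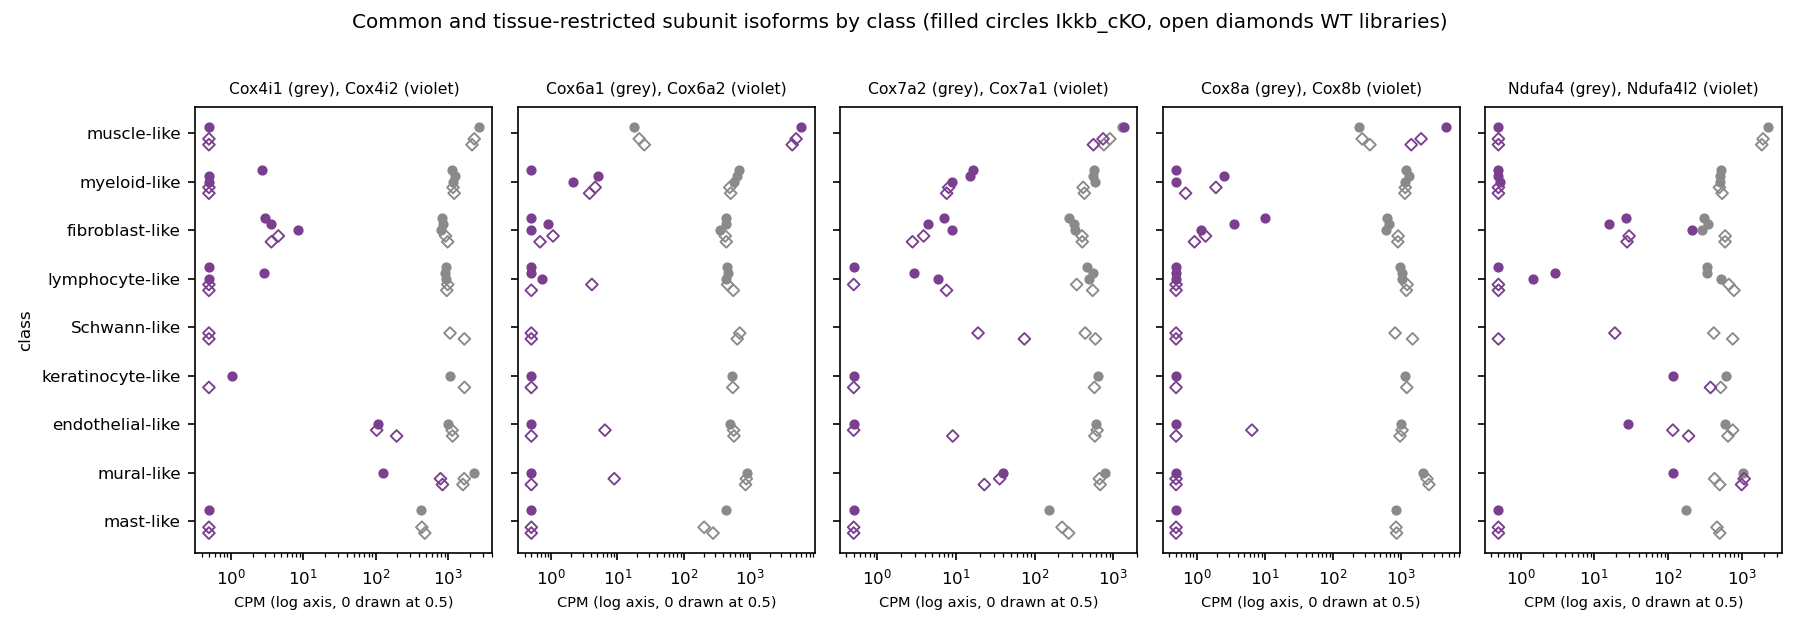
Plain CPM (log x axis, 0 drawn at 0.5) of common (grey) and tissue-restricted (violet) isoforms by class (y axis), each point a library with at least 20 cells of the class, filled for Ikkb_cKO and open for WT. Cox6a2 and Cox8b stand out in muscle-like cells and Cox4i2 and Ndufa4l2 in mural-like cells, where Ikkb_cKO library 3 (128.1 and 118.3) lies below both WT libraries.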

How the data were processed

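Single-cell RNA of ventral skin was measured in 5 libraries. The authors deposited unnormalised UMI counts, 1 matrix of genes by called cell barcodes for each library, and the matrix headers name software version 3.0.1 and format version 2. Alignment used Cell Ranger 1.3.0 and mm10, per the submitters' processing notes; how reads in overlapping genes were assigned is not stated there.

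Barcodes under 300 genes or over 10% mitochondrial UMIs were removed, and so were 235 barcodes (2.12%) with the highest Scrublet doublet scores, at a rate of 0.008 per 1000 cells. Since the limit on mitochondrial UMIs touches the genes studied, 5% and 20% were tried too. It removed 2.25% to 3.92% of barcodes in Ikkb_cKO libraries and 2.81% and 3.03% in WT. Counts were scaled to 10000 per cell, and 2000 variable genes without respiratory chain and mitochondrial genes, 30 principal components, 15 neighbours and Leiden resolution 1.0 gave 31 clusters (scanpy 1.11.5), of which 29 were named. A name needed 3 markers among the 50 genes of highest fold and a lead of 2.

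Counts were summed by library and class, filtered by filterByExpr, scaled by TMM and tested with edgeR 4.0.16 (robust quasi-likelihood test, R 4.3.3), Benjamini-Hochberg adjusted over all genes of a class at a threshold of 0.05. DESeq2 1.42.0 was an alternative. The edgeR step was tested on simulated counts. Lengths are medians over protein-coding transcripts of the GENCODE annotation of GRCm38. Named nuclear genes were the 12 largest changes per direction past the threshold in fibroblast-like cells and 5 in other classes (average log2 CPM of at least 4), the tissue-restricted isoforms with their partners, and the Sdh genes; other lists gave up to 4 genes of smallest p. The members, lists and rules were chosen with earlier results of these data known. Other alternatives were leaving out each library, other scalings and low-count filters, Leiden resolutions 0.5 and 2.0, kept doublets, cells thinned to 1000 UMIs, Ikkb_cKO libraries 1 and 2 summed, and single clusters.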

Additional observations from a re-analysis of the deposited data

Results flagged for a closer look

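For some genes the genotype effect differed between fibroblast-like cells and another class by the class by genotype test in edgeR. In both comparisons most of these calls were lost without either WT library. Against myeloid-like cells the effect was higher for 7 of 13 mitochondrially encoded and lower for 36 of 89 nuclear-encoded genes. Of all genes, 7.56% were higher and 4.38% lower in that test. The mitochondrial differences (log2, fibroblast-like minus myeloid-like) were 1.13 for mt-Nd2, 0.91 for mt-Nd4, 0.68 for mt-Nd3, 0.62 for mt-Co1, 0.53 for mt-Nd1, 0.45 for mt-Co3 and 0.45 for mt-Co2. All 7 belong to complexes I and IV.

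Among named nuclear genes of complex I, Ndufs8 differed by -1.0, Ndufa12 by -0.98, Ndufv2 by -0.89 and Ndufv1 by -0.87. For complexes II and III, Sdhb differed by -1.02 and Uqcrc1 by -0.80. Of complex IV, Cox6b2 differed by -1.27, Ndufa4 by -0.86, Cox7b by -0.85, Cox7a2 by -0.77, Cox6b1 by -0.75 and Cox8a by -0.52. Cox7b and Cox7a2 passed this test although neither passed in fibroblast-like cells alone, and Cox6b2 rests on few UMIs. Of complex V, Atp5g1 differed by -1.35, Atp5d by -0.86, Atp5c1 by -0.81 and Atp5g2 by -0.63.

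Against lymphocyte-like cells the effect differed for 0 of the 13 mitochondrially encoded genes. It was lower for 6 of 85 nuclear-encoded genes, where 2.27% of all genes were lower. Among the 6 were Atp5g2 by -1.09, Atp5g1 by -0.88 and Atp5d by -0.87. For these 3 genes, and for Cox7c and Ndufa13, the effect in fibroblast-like cells was lower than in both other classes.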

How the results depend on the processing

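The direction of the fibroblast-like result held in all alternatives run on summed levels: the log2 ratio of mitochondrial to nuclear UMIs was 1.05 higher in Ikkb_cKO (0.97 to 1.13 on leaving out each library). It was 0.63 in lymphocyte-like cells (0.44 to 0.78) and 0.04 in myeloid-like cells (-0.11 to 0.15). Fits that keep 1 WT library assume that it varies like the Ikkb_cKO libraries. The counts of calls moved more, and the cause of each move was not tested beyond the construction of the setting. Within fibroblast-like clusters 10, 17 and 4 the effects were smaller too. The nuclear medians were -0.32, -0.27 and -0.34 on the log2 scale, against -0.51 over the class, and the mitochondrial medians 0.18, 0.66 and 0.66, against 0.84. In fibroblast-like cells 8 mitochondrial genes were higher (5 to 10 on leaving out each library, 1 within cluster 10) and 45 nuclear genes lower (10 to 59 on leaving out each library, 25 with length offsets, and 19, 16 and 16 within clusters 10, 17 and 4, where fewer genes and cells were tested). In myeloid-like cells the 5 mitochondrial rises were 3 with plain library totals, with DESeq2's Wald test and with Ikkb_cKO libraries 1 and 2 summed, 2 with at least 10 UMIs in every library and with thinned cells, and 1 to 6 on leaving out each library; the 10 nuclear rises were 6 with thinned cells and 1 to 24. In lymphocyte-like cells the 8 mitochondrial rises were 5 with plain totals and with thinned cells and 0 to 11 on leaving out each library; the 2 nuclear rises were 1 with plain totals, with the Wald test and with libraries 1 and 2 summed, and 0 to 9. For fibroblast-like minus myeloid-like effects, the 7 mitochondrial genes were 3 with DESeq2's size factors and with libraries 1 and 2 summed, 4 with plain totals and with the 5% limit, 2 with thinned cells and 1 to 10 on leaving out each library, and the 36 nuclear genes 2 to 40. For fibroblast-like minus lymphocyte-like effects, the 0 mitochondrial genes were 2 with plain totals, 3 with at least 10 UMIs, 1 with no low-count filter, with the 20% limit and with doublets kept, and 0 to 4, and the 6 nuclear genes were 1 with size factors, 2 with plain totals and with libraries 1 and 2 summed, 11 with at least 10 UMIs and 0 to 15. Of single genes, mt-Co2 was at -0.14 within cluster 10.

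The replicate numbers pair no animals, and same-numbered libraries did not deviate together (correlations from -0.056 to 0.026). No WT library shares the number of Ikkb_cKO library 3, so a replicate block takes that library out of the genotype effect. The effect then rests on libraries 1 and 2 of each genotype, as in the fit without library 3. With this block 60 nuclear genes were lower and 10 mitochondrial genes higher in fibroblast-like cells, against 59 and 10 without library 3. Nuclear genes higher were 17 in myeloid-like and 7 in lymphocyte-like cells, and Cox6b2 turned to -0.92 in fibroblast-like cells. Ikkb_cKO libraries 1 and 2 were the shallowest, with 2163166 and 2350022 UMIs, so genes of low level are measured least precisely there.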
